A study of Mus musculus with 6 samples.

Results

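The Ott genes (ovary testis transcribed) are a family of near-identical copies on the mouse X chromosome. The cluster described here consists of 10 genes: Ott itself, Luzp4, and the predicted genes Gm15080, Gm15085, Gm15091, Gm15093, Gm15097, Gm15107, Gm15114 and Gm15127. All rows of the expression table whose annotated symbols include any of the 10 were taken, which gave 12 of 41345 rows. One pair of rows had equal values on every array (within 1e-05), so 11 distinct rows were counted. Of these, 6 carry a single symbol (Gm15080, Gm15091, Gm15097, Gm15114, Gm15127 and Luzp4), and 5 are shared rows that each list 12 symbols, namely the 10 genes and the further copies Gm10439 and Gm15128. Ott, Gm15085, Gm15093 and Gm15107 appear on the shared rows only, so the table gives no value for any of these 4 genes alone.

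The RNA came from R1, an established line of male mouse embryonic stem cells (129X1 x 129S1). The cells grew on gelatin, and the medium held 15% serum and the self-renewal cytokine LIF. The untreated group had no addition. The AA2G group was kept for 3 days with 0.74 mM (250 µg/ml) ascorbic acid 2-glucose, a vitamin C derivative from which cells release ascorbate. Each group has 3 samples, described as independent replicates, on 1 Mouse Gene 2.0 ST array each. All cells come from 1 established line. The p-values below rest only on the spread between these samples, which limma pools in part over all tested rows.

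Ott was named for its transcripts in ovary and testis, where the family is known to be used in germ cells during meiosis. LUZP4, the human gene after which Luzp4 is named, encodes an adaptor for mRNA export and is a cancer-testis antigen, a protein normally limited to the testis that some tumours make. Many germ cell genes are kept silent in embryonic stem cells by DNA methylation and by repressor complexes at their promoters. Ascorbate is a cofactor of the dioxygenases that oxidise methylated cytosine and demethylate histones. The comparison asks which transcripts differ after 3 days of AA2G in such cells.

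Most of the copies are also alike in front of their annotated starts, as the printed sequences show. Each of the 10 genes has 1 entry among the RefSeq promoters of GRCm38.p6. In 8 of them a common window of 216 bases was found upstream of the start, and the 7 windows other than that of Ott differ from it at 3 to 5 bases. The windows below are those of Ott and of the genes with a row of their own. In Ott the capitals mark a match to the GC box CCGCCC, and in the other genes they mark the bases that differ from Ott. Gm15114 lacks the window, and its 250 bases upstream are shown without capitals.
Ott: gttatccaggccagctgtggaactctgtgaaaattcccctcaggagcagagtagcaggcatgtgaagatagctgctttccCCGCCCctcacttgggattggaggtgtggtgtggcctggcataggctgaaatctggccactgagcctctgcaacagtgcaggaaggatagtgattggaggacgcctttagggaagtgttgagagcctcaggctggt
Gm15080: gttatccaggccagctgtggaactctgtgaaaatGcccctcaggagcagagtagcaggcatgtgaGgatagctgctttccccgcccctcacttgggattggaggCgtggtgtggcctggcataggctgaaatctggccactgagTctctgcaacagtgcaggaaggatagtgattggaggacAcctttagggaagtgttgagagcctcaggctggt
Gm15127: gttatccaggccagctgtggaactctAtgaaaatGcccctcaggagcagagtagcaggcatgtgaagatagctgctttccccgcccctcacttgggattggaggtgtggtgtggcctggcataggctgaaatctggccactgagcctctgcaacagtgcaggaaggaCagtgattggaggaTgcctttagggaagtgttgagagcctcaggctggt
Luzp4: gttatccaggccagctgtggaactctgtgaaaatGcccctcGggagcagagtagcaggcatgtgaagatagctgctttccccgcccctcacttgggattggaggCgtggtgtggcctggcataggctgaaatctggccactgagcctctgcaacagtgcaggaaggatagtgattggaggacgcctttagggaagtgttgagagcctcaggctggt
Gm15097: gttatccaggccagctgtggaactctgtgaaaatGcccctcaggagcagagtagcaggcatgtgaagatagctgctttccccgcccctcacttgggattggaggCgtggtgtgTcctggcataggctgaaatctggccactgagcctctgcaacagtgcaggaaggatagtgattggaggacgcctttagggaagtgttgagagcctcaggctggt
Gm15091: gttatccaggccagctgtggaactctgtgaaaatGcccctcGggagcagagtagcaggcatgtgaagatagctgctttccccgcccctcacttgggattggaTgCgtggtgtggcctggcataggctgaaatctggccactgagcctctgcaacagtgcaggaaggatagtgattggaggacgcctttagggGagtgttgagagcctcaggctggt
Gm15114: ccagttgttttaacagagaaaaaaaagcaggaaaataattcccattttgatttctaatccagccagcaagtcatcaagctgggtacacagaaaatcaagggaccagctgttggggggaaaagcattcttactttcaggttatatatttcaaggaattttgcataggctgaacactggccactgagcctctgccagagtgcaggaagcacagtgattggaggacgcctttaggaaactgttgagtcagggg
All lie on the plus strand, at chrX:149097736-149097951 (Ott), chrX:147992777-147992992 (Gm15080), chrX:148663382-148663597 (Gm15127), chrX:148882360-148882575 (Luzp4), chrX:149784257-149784472 (Gm15097), chrX:149941439-149941654 (Gm15091) and chrX:148488699-148488948 (Gm15114).

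Counted from the first base of the window, Ott differs from the 7 other members at T35G (Ott has the first base named). The change T105C, found in 6 of these 7 and not in Gm15127, adds a CpG, the dinucleotide that DNA methylation acts on. The change A42G, found in Luzp4 and Gm15091, adds another. C182T in Gm15127 and G183A in Gm15080 each remove one. Over 250 bases upstream of the start, the 8 promoters with the window hold 3 to 5 CpGs, against a median of 6.0 over 32851 RefSeq promoters, and those of Gm15114 and Gm15093 hold 1. The upstream sequences of Gm15114 and Gm15093 are identical to each other. They match that of Ott at 74.1% of 216 bases paired in an alignment with gaps, which are not counted. These 216 bases are not the common window, and the printed sequences are most alike in their later part. In the 250 bases upstream of each start, 5 motifs were searched on both strands. The GC box CCGCCC matched once in each of the 8 promoters (32.7% of all promoters hold it), and ATTGG, the reverse complement of a CCAAT box, matched 2 times in each of the 8 and once in Gm15114 and Gm15093 (33.8% of all). CACGTG (6.0% of all), TCCCGC (16.9%) and TATAAA (12.4%) had no match in the 10 promoters. CCGCCC and TCCCGC could share letters where they overlap. A match describes these letters and shows no binding.

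The Ott cluster was higher in cells kept with AA2G on every row measured. On all 11 distinct rows the 3 AA2G arrays lay above the 3 untreated arrays, with a median difference of 1.52 on the log2 scale (2.88-fold) and a range from 0.47 to 2.00. The members were chosen by the measured differences of this same contrast, so the differences and the calls of member rows are a description and no independent test. Called rows were those with a Benjamini-Hochberg adjusted p under 0.05 in limma over all 25335 rows with a symbol. By that rule 10 of the 11 rows were called higher, against 0.659% of all rows higher and 0.142% lower (0.801% in either direction). Groups that did not overlap were found for 15.6% of all rows, with AA2G above untreated in 7.28% and below it in 8.32%. Because the members were taken from this contrast, nothing is read from these counts. The call count of the cluster was 6 without untreated replicate 3. The exception among the 11 rows was Gm15097.

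The 5 shared rows, which list all 10 genes, had differences from 1.52 to 1.88. Shared row 1 read 4.52, 4.24 and 4.17 on the untreated arrays and 6.27, 6.15 and 6.15 on the AA2G arrays, a difference of 1.88 ± 0.10 (fitted SE; 3.67-fold). Shared row 2 read 5.00, 4.78 and 4.68 against 6.48, 6.39 and 6.42, a difference of 1.61 ± 0.10. On both rows the untreated arrays stayed at or below 5.00 and the AA2G arrays were all above 6.1.

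Shared row 3 read 4.88, 4.80 and 4.47 on the untreated arrays and 6.47, 6.68 and 6.65 with AA2G, a difference of 1.88 ± 0.12. Shared row 4, whose values occur on a second row as well, read 4.92, 4.82 and 4.32 against 6.37, 6.60 and 6.56, a difference of 1.83 ± 0.15. Shared row 5 had the smallest spread, with 4.54, 4.57 and 4.57 untreated and 6.10, 6.10 and 6.04 with AA2G, a difference of 1.52 ± 0.07. The 2 groups did not overlap on any of these rows, and untreated replicate 3 was the lowest array on 4 of the 5. The shared rows list the same 12 genes and can share probes, so they are not independent measurements, and which copies gave the signal cannot be read from them.

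**Figure D1:**
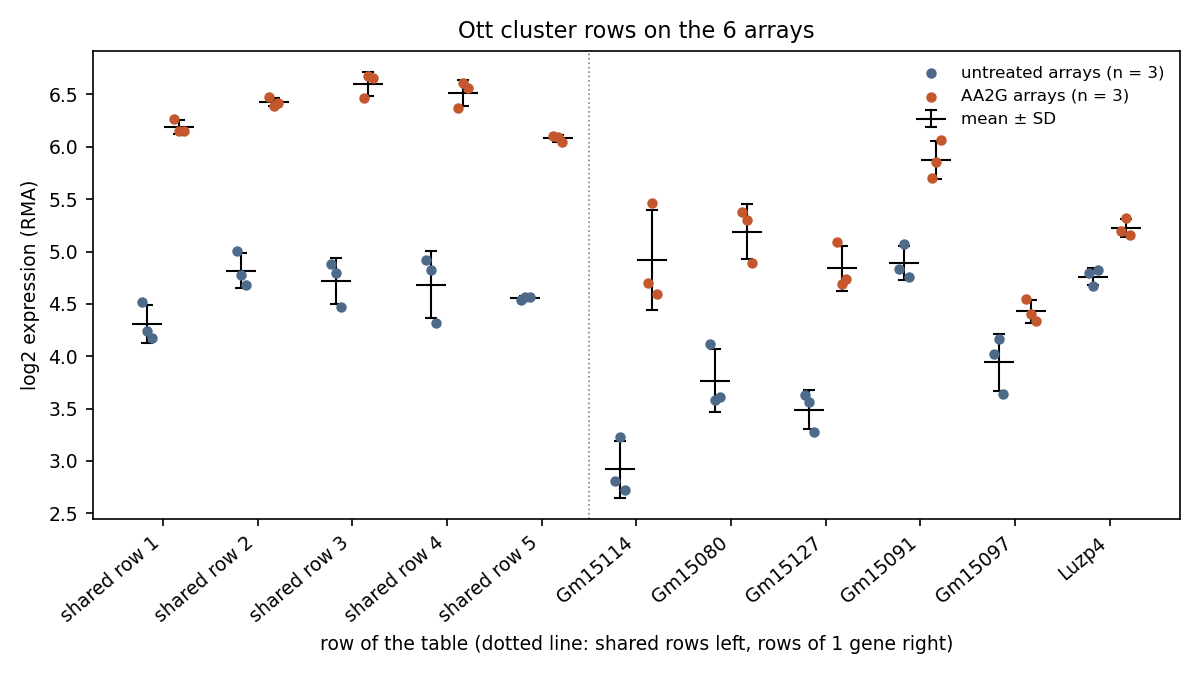
log2 expression (RMA) on the vertical axis for the 11 distinct rows of the Ott cluster, with 1 point per array, 3 untreated and 3 AA2G, and bars for mean ± SD. The AA2G points lie above the untreated points on every row, with the smallest gaps for Gm15097 and Luzp4.

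The rows that name 1 gene differed more among themselves. Gm15114, listed as Ott-like in RefSeq, had the largest difference of the cluster. Its untreated arrays read 2.81, 3.22 and 2.73 and its AA2G arrays 4.70, 5.47 and 4.60, so the mean went from 2.92 ± 0.27 to 4.92 ± 0.48 (SD, n = 3), a difference of 2.00 ± 0.23 (SE). AA2G replicate 2 stood above the other 2 AA2G arrays, and the difference was 1.73 without it.

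Gm15080, also listed as Ott-like, read 4.11, 3.58 and 3.61 untreated and 5.37, 5.30 and 4.89 with AA2G. The means were 3.77 ± 0.30 and 5.19 ± 0.26 (SD, n = 3), a difference of 1.42 ± 0.17 (SE; 2.68-fold). Gm15127 read 3.63, 3.57 and 3.28 untreated and 5.09, 4.69 and 4.74 with AA2G, a difference of 1.35 ± 0.13 (2.55-fold). On these 2 rows the lowest AA2G array stood at least 0.78 above the highest untreated array.

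Gm15091, the last gene of the cluster in the order of the chromosome, read 4.84, 5.07 and 4.76 untreated and 5.70, 5.85 and 6.07 with AA2G, a difference of 0.99 ± 0.12 (SE; 1.98-fold). Its groups were apart by 0.64. Gm15097, another gene listed as Ott-like, had the widest untreated spread relative to its difference: 4.02, 4.17 and 3.64 untreated against 4.55, 4.40 and 4.34, a difference of 0.49 ± 0.14 (1.40-fold). The lowest AA2G array of Gm15097 was 0.17 above the highest untreated array, the narrowest gap of the cluster.

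Luzp4 had the smallest difference. It read 4.79, 4.67 and 4.82 untreated and 5.20, 5.32 and 5.16 with AA2G, so the mean went from 4.76 ± 0.08 to 5.23 ± 0.08 (SD, n = 3), a difference of 0.47 ± 0.08 (SE; 1.38-fold). The groups did not overlap, and both had an SD of 0.08. The row of Luzp4 was not called in 12 of the other settings, among them each setting that left out 1 array. Other single-gene rows also lost their call with 1 array left out. These were Gm15114 (untreated replicate 3), Gm15080 (untreated replicate 3 or AA2G replicate 2) and Gm15091 (untreated replicate 1 or 3). Gm15080 was also not called over all rows of the table.

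The promoter windows and the differences can be set side by side for the genes with a row of their own. Luzp4 and Gm15097 each differ from the window of Ott at 3 bases, Gm15127 at 4, and Gm15080 and Gm15091 at 5, with log2 differences of 0.47, 0.49, 1.35, 1.42 and 0.99. Gm15114, which has the other upstream sequence, had 2.00. Over 250 bases Gm15080 and Gm15127 hold 3 CpGs, as Ott does, Gm15097 and Gm15091 hold 4, Luzp4 holds 5 and Gm15114 holds 1. The 250 bases are counted from the annotated start. The common window ends 6 bases before that start in Gm15127 and 31 before it in Gm15097. In Ott, Gm15080, Gm15091 and Luzp4 it ends at the start. The CpG counts therefore cover stretches that do not fully match between copies. The 6 genes compared have rows that may pick up RNA of other copies, and whether the sequence bears on the differences was not tested.

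All 11 member rows started from dim signals. In untreated cells the means of the 11 rows lay between 2.92 and 4.89, with from 7.98% to 38.3% of all named rows below them, and with AA2G between 4.43 and 6.60, with from 29.0% to 65.8% below. The table has no detection calls, so untreated values cannot be told from background, and the folds of dim rows are uncertain. Of the 11 rows, 7 passed a filter on the mean over all 6 arrays (above 4.98, the percentile 40 of named rows), a mean to which the AA2G arrays contributed. Levels of different rows are not compared, since each row has its own probes.

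Gm15128 is a copy at the edge of the cluster that was not among the 10 genes, although the shared rows list it. Its own row read 3.71, 4.05 and 3.77 untreated and 3.55, 4.41 and 4.39 with AA2G, so the groups overlapped. The difference was 0.28 ± 0.22 (SE; limma adjusted p = 0.768). Whether it differs from the other copies in its response was not tested. Gm10439, the only protein-coding gene between the outermost members that is not one of the 10, was measured by the shared rows only.

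Between the outermost members RefSeq places 29 further genes, 28 of them pseudogenes, and none has a row of its own. The 15 nearest measured genes on each side, Gm15128 included, gave 30 neighbours, and limma called 0 higher and 0 lower. The share called was 0.801% of all rows and 2.78% of X-linked rows outside the cluster. At either share 30 rows may well hold no call, so nothing is read from the 0. Without the adjustment for many rows, 0 neighbours were higher and 1 was lower (limma p under 0.05). That gene, Fam120c, read 5.02 ± 0.05 untreated and 4.74 ± 0.07 with AA2G (SD, n = 3), with an adjusted p of 0.194 in limma. The median difference of the 30 was -0.03, against -0.01 for all named rows, with 13 above 0 and 17 below. On the left the nearest gene beyond Gm15128 was Lrch2, a leucine-rich repeat gene, at -0.04 ± 0.07 (SE), and on the right the pseudogene Gm5946 at 0.14 ± 0.14 and then Tmem29 at 0.04 ± 0.09. The lowest value was -0.32 ± 0.16 for the microRNA gene Mir1264, and the highest was that of Gm15128, followed by 0.15 ± 0.08 for the kinase gene Wnk3.

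**Figure D2:**
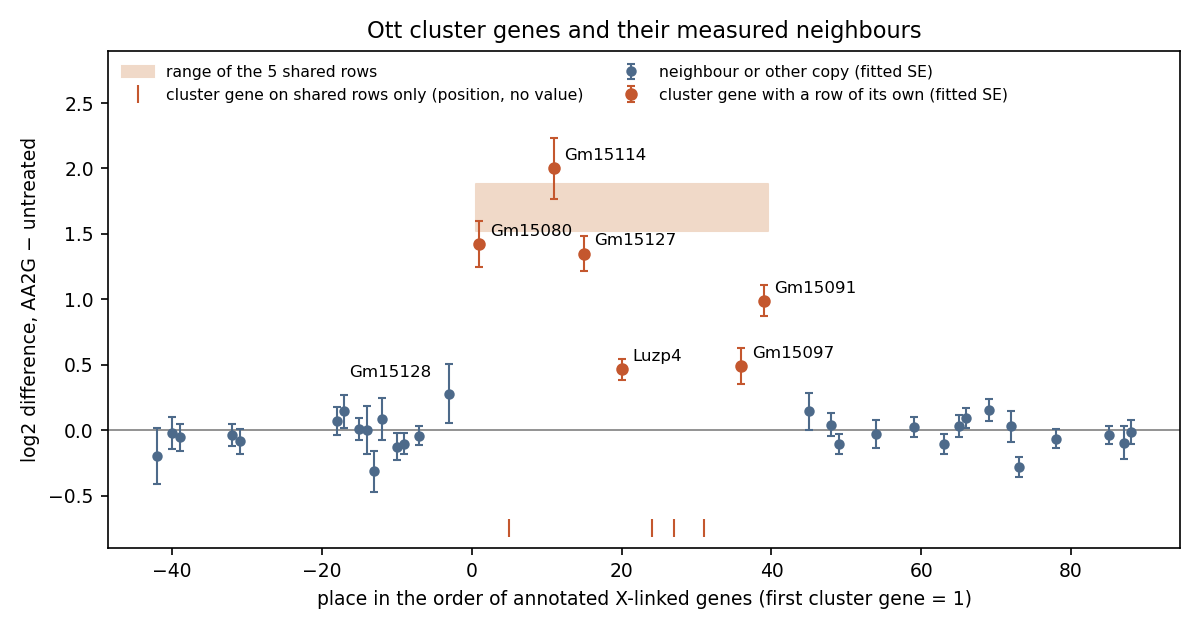
Difference between AA2G and untreated arrays (log2, vertical axis, bars are fitted SE) against the place in the order of annotated X-linked genes. The 6 cluster genes with a row of their own lie between 0.47 and 2.00, and the 30 measured neighbours between -0.32 and 0.28; the band is the range of the 5 shared rows, drawn across the cluster.

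Other multicopy gene families used in the testis, mostly of the X chromosome, were described from a list chosen with earlier results of these data known. It is called the X-linked multicopy list below, although a few of its genes, such as Cypt4, appear to lie elsewhere. Of its 67 genes, 45 had a row of 1 symbol, and limma called 3 higher and 0 lower (unadjusted p under 0.05 for 11 above and 1 below 0), with 35 above 0 and a median of 0.10. Fthl17e and Fthl17b are ferritin-like genes of the germ line. Fthl17e read 3.72, 4.10 and 3.93 untreated and 4.98, 4.96 and 5.10 with AA2G, and rose by 1.09 ± 0.11 (SE; limma adjusted p = 0.00376). Fthl17b rose by 1.05 ± 0.14 (limma adjusted p = 0.0137). Xlr3c, of the X-linked lymphocyte-regulated family, rose by 1.05 ± 0.15 (limma adjusted p = 0.0195). Magea4, of the melanoma antigen family, was at 0.78 ± 0.15 (limma adjusted p = 0.0800). Without 1 array, Fthl17b had an adjusted p of 0.0515 (untreated replicate 2), 0.0622 (untreated replicate 3), 0.0521 (AA2G replicate 1) and 0.0596 (AA2G replicate 2), and Xlr3c of 0.0701 (untreated replicate 1), 0.0892 (untreated replicate 3) and 0.0862 (AA2G replicate 2). Magea4 passed without untreated replicate 2 (0.0390). The list had 1 call without untreated replicate 3 and 1 without AA2G replicate 2.

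Genes of that list also appear on 35 distinct shared rows. Limma called 5 of them higher and 0 lower, with a median of 0.02 and a highest value of 1.45, and over all 1808 rows with several symbols outside the cluster 0.719% were called. The 5, named after their values were seen, list Pramel3 and its relatives (1.45 ± 0.12 and 1.24 ± 0.11), Fthl17 genes (0.82 ± 0.08 and 0.88 ± 0.12) and Xlr4 genes (1.05 ± 0.17; limma adjusted p = 0.0409). The second Fthl17 row had an adjusted p of 0.0880 without AA2G replicate 2 and 0.0888 without AA2G replicate 3. The Xlr4 row had 0.117, 0.124 and 0.197 without untreated replicates 1, 2 and 3 and 0.103 without AA2G replicate 3.

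A list of 24 single-copy X-linked germ cell genes was likewise chosen with earlier results of these data known, so its counts are no independent test. Of the 24, 22 were measured, and limma called 5 higher and 0 lower (unadjusted p under 0.05 for 8 above and 2 below 0), with a median of 0.09. Fmr1nb, a cancer-testis antigen gene, read 5.34, 5.24 and 5.18 untreated and 7.38, 7.39 and 7.36 with AA2G, and rose by 2.12 ± 0.07 (SE; limma adjusted p = 2.47e-05). Usp26, which encodes a deubiquitinase of the testis, rose by 1.97 ± 0.12. Nxf3 and Nxf2, relatives of the mRNA export factor gene Nxf1, rose by 1.47 ± 0.19 (limma adjusted p = 0.0139) and 1.09 ± 0.14 (0.0119), and Nxf7, the last of the 5 called, by 0.51 ± 0.09 (0.0444). The calls of Fmr1nb and Usp26 held with each array left out. Without untreated replicates 1, 2 and 3 the adjusted p was 0.0622, 0.0572 and 0.0548 for Nxf2, 0.0690, 0.0632 and 0.0632 for Nxf3, and 0.105, 0.103 and 0.205 for Nxf7. Nxf3 had 0.0514 and 0.0651 without AA2G replicates 2 and 3, and Nxf7 had 0.130, 0.0702 and 0.187 without AA2G replicates 1, 2 and 3. The number called was 2 without any 1 of the untreated replicates and 3 without AA2G replicate 2 or 3. Over the 1079 X-linked rows outside the cluster, 2.41% were called higher and 0.371% lower (2.78% in either direction). These rows include the genes of this list.

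**Figure D3:**
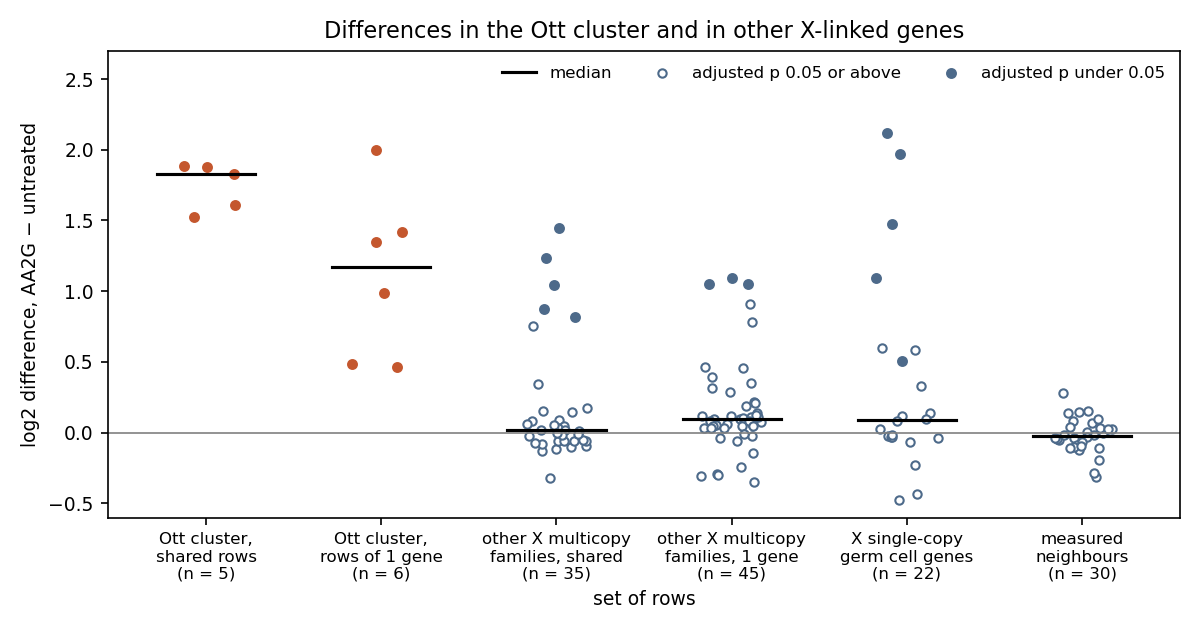
Difference between AA2G and untreated arrays (log2, vertical axis) for each row of 6 sets, with a line at the median; filled blue points passed an adjusted p of 0.05 in limma, and the cluster rows, in orange, carry no test mark. The cluster medians are 1.83 for shared rows and 1.17 for rows of 1 gene, and the medians of the other 4 sets lie between -0.03 and 0.10. The multicopy families with rows of 1 gene are mostly, not only, X-linked.

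The profile of the cluster over the 6 arrays, taken as the mean of its 11 rows, was 4.37, 4.32 and 4.09 in untreated cells and 5.66, 5.72 and 5.60 with AA2G. The rows of 1 symbol most like it by Pearson correlation over the 6 arrays were those of Rhox5 (r = 0.9966), Smoc1 (0.9962), Fmr1nb (0.9957), Bbs9 (0.9942), Mov10l1 (0.9942), Arhgap30 (0.9939), Tex12 (0.9937), Slc29a3 (0.9925), Sohlh2 (0.9923) and Rhox13 (0.9917). Such an r over 2 groups of arrays is mostly the difference between the groups, and it carries no p. Rhox5 and Rhox13, homeobox genes of an X-linked reproductive cluster, differed by 1.57 and 1.92, Sohlh2, a germ cell transcription factor gene, by 2.45, and Mov10l1, a helicase gene of the piRNA pathway, by 1.57. The synaptonemal complex gene Tex12 had a profile of the same shape with a difference of 0.21. Outside the germ line genes, Smoc1 encodes a secreted matrix protein (0.70), Bbs9 a cilium transport subunit (0.66) and Slc29a3 a nucleoside transporter (2.03).

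Over the whole series the array medians lay between 5.06 and 5.10, and 203 of 25335 named rows were called, 167 higher and 36 lower. That count was 117, 121 and 88 without untreated replicates 1, 2 and 3 and 115 and 102 without AA2G replicates 2 and 3. Of 10 pluripotency genes, which define embryonic stem cells, limma called 0 (unadjusted p under 0.05 for 0 above and 3 below 0). The 3 were Klf4 at -0.31 ± 0.07, Nanog at -0.17 ± 0.07 and Pou5f1 at -0.16 ± 0.07 (SE). The median of the 10 was -0.10, with 2 above 0, and Sox2 differed by -0.01 ± 0.10 (SE). Of 11 measured germ cell markers 4 were called higher (Sohlh2, Dazl, Mael and Stra8) and 0 lower. At an unadjusted limma p under 0.05, 4 were above 0 and 2 below, Ddx4 and Dnd1, each at -0.17. The summed linear level of the 11 ran from 1576 to 1888 untreated and from 3818 to 3985 with AA2G. This sum adds rows with different probes and weights bright rows most. Sohlh2 (mean 8.07 to 10.52) and Dazl (7.06 to 9.43) had the largest differences of the 11. The 4 called markers moved with the cluster, 5 of the 11 were below 0 and the median of the 11 was 0.20, and their part in the result was not tested. Stra8 was not called without untreated replicate 1, 2 or 3 (0.0834, 0.0705 and 0.0836) or AA2G replicate 2 or 3 (0.0517 and 0.0888), nor Mael without untreated replicate 3 (0.0563), by limma adjusted p. In bulk RNA, a few cells with much of a transcript and many cells with little of it cannot be told apart. Limma called 0 of 7 spermatid, 8 oocyte, 9 trophoblast, 9 primitive endoderm, 8 two-cell-like and 8 feeder fibroblast markers. At an unadjusted p under 0.05 these 6 lists held 2 higher (1 spermatid, 1 primitive endoderm) and 4 lower (2 trophoblast, 1 primitive endoderm, 1 fibroblast). Lama1, a basement membrane gene of the primitive endoderm list, was at 0.50 ± 0.09 (SE) and was not called (limma adjusted p = 0.0692). It passed without untreated replicate 1 (limma adjusted p = 0.0292). The median of the 9 genes of that list was -0.14, with 4 above 0. Among 4 genes of the sex chromosomes, Xist, the RNA of the inactive X chromosome, was at 4.35 ± 0.08 and 4.49 ± 0.12, and Y-linked Eif2s3y at 8.23 ± 0.13 and 8.07 ± 0.22 (SD, n = 3), neither called. Y-linked Kdm5d was called higher and is taken up among the other observations.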

How the data were processed

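Gene expression was measured on 6 Affymetrix Mouse Gene 2.0 ST arrays, 3 per group. The authors deposited log2 values from RMA, run in Expression Console according to the submitters' processing notes. Software versions, annotation release, build and filters: not given in the sources used here. Groups and replicate numbers come from the sample labels, and 0 columns of the table were left unmapped. The platform annotation gives 1 symbol to 23521 rows, several to 1814 and none listed to 16010. Arrays give no read depth, and their number limits the precision.

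AA2G was compared with untreated cells in limma 3.58.1 (R 4.3.3; lmFit and eBayes, default prior, two-sided, no covariate) over the 25335 rows with 1 or more symbols, because the shared rows of the cluster list several. Differences are AA2G minus untreated. For genes other than members with several rows, the brightest row was used. The fit was tested on simulated data. With 3 arrays in each group, the smallest p that exact permutation allows is 0.1, so no such test was run. The members and lists were chosen with earlier results of these data known.

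Named are each distinct member row, up to 4 genes of each X-linked list by smallest p, the nearest neighbours, those past the threshold and the largest differences, and the 10 rows most like the cluster; Lrch2, Tmem29, Nxf7, Tktl1 and the shared rows of other families were named after their values were seen. Alternatives were repeated quantile normalization, 1 median for all arrays, array weights, a prior that is trended and robust, a block for the replicate number, brighter rows, all rows, rows of 1 symbol, 1 row per gene, ordinary variances and leaving out each array. Promoters are RefSeq sequences of GRCm38.p6, aligned with Biopython 1.88. The build of the array annotation is not known, so the RefSeq gene table gave only names and gene order. Protein sequences were not used here, so the part of the naming rule that compares proteins was not applied.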

Additional observations from a re-analysis of the deposited data

How the results depend on the processing

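All 163 differences of single member rows under the alternatives kept their direction and moved by less than the SD between replicates. They ran from 0.34 (Gm15097 without untreated replicate 3) to 2.16 (Gm15114 without AA2G replicate 3). Much of this was fixed in advance. The trended robust prior, ordinary variances, the replicate block and the choices of rows leave the group means as they are. Leaving out 1 of 3 arrays moves a mean by less than its SD and cannot reverse groups that do not overlap. Only repeated quantile normalization, 1 median for all arrays and array weights could have moved a difference further. The median member difference was 1.17 over rows of 1 symbol and 1.35 with 1 row per gene, since both settings drop shared rows. Leaving out 1 array gave medians from 1.51 to 1.60. Member rows past the threshold were 4 of 6 with rows of 1 symbol, 6 of 7 with 1 row per gene, 1 of 11 with ordinary variances, and from 6 to 9 with an array left out. Calls over all rows were 326 with the trended robust prior, 551 with array weights (350 higher, 201 lower), 131 over all rows of the table, 14 with ordinary variances and from 88 to 150 with an array left out. The X-linked multicopy list had 7 calls with array weights, 1 over all rows, 0 with ordinary variances and 1 to 3 with an array left out. The single-copy list had 2 with brighter rows, 2 over all rows, 1 with ordinary variances and 2 to 4 with an array left out. The cause of these shifts was not tested, beyond the fewer samples or other rows that the settings bring. Neighbours had 0 calls in every setting.

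With the replicate number as a block, 169 rows and 9 member rows were called, and the median member difference was 1.52. Deviations of same-numbered samples correlated at r = 0.23, 0.22 and 0.01 for numbers 1, 2 and 3, and each sample correlated best with its own number. Untreated 1 with AA2G 2, and untreated 2 with AA2G 1, were at -0.22. These values do not settle whether the numbers are pairs. The main fit used no pairs, and the block is the alternative. By limma adjusted p, the block ended the calls of Luzp4, Fthl17b (0.0624), Nxf7 (0.0964), Arhgap30 (0.0725) and Kdm5d (0.0964). It also ended those of 1 Fthl17 shared row (0.0698) and the Xlr4 shared row (0.0755), and brought in Tktl1 (0.0364). Marker genes that passed only elsewhere were Klf4 (trended robust prior and array weights), Lama1 (these, brighter rows and without untreated replicate 1), Krt8 (array weights and brighter rows) and Krt18 (array weights). Dim rows cannot be told from background, and rows of near-identical copies may share signal.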

Other observations

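Kdm5d, a Y-linked histone demethylase gene, read 3.11, 3.01 and 3.11 in untreated cells and 3.63, 3.95 and 3.64 with AA2G, a log2 difference of 0.66 ± 0.10 (SE; limma adjusted p = 0.0304). Its untreated signal is dim and cannot be told from background. The adjusted p was 0.0943, 0.112 and 0.141 without untreated replicates 1, 2 and 3 and 0.0536, 0.0517 and 0.0816 without AA2G replicates 1, 2 and 3, so the call did not hold with any array left out. Another Y-linked gene, Uty, was at 0.24 ± 0.10 (limma adjusted p = 0.518) and Eif2s3y at -0.16 ± 0.12 (limma adjusted p = 0.762).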
